A study of Mus musculus and Rattus norvegicus with 32 samples.

Results

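Solute carriers are membrane proteins that move nutrients, ions, vitamins, metals and organic acids into and out of cells and organelles. The carrier genes described here were taken as every probe set whose annotation names 1 gene symbol starting with Slc and a digit, apart from 6 carriers of fatty acids, bile acids, glucose 6-phosphate and glutamate (Slc25a20, Slc27a2, Slc27a5, Slc10a1, Slc37a4 and Slc1a2) that the rule leaves out. This gave 191 genes of 9931, measured by 349 of 21162 probe sets, namely 177 of 12422 on the mouse array (145 genes) and 172 of 8740 on the rat array (115 genes). The rule used the symbols and no measured value. It leaves out carriers whose symbols start with Slco, and it takes in Slc9a3r1, Slc9a3r2 and Slc4a1ap, which encode scaffold or adaptor proteins rather than carriers.

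Livers came from male B6C3F1 mice and SD rats given trichloroethylene (TCE), a chlorinated solvent, at 1500 mg/kg in corn oil by mouth, or corn oil alone. Dosing was either 1 dose, with animals aged 8 weeks, or 1 dose a day for 14 days, with animals aged 10 weeks, and livers were taken 18 hours after the last dose. Each of the 8 groups (2 species, 2 schedules, TCE or oil) had 4 Affymetrix arrays, 32 in all, and both species carry oil controls for each schedule. The labels do not say whether the 4 samples of a group are separate animals, so p-values reflect how these particular samples scatter, which may be partly technical.

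Hepatocytes take up and release amino acids, sugars, lactate, nucleosides, carnitine, organic anions and metals through carriers of the plasma membrane, and a separate family, SLC25, moves metabolites across the inner mitochondrial membrane. Some carriers work as pairs: Slc3a2 and Slc3a1 are heavy chains that bring amino acid carriers of the Slc7 family (the light chains) to the cell surface, and basigin (Bsg) and embigin (Emb) do the same for monocarboxylate carriers of the Slc16 family. Several carrier genes are textbook targets of the stress factors ATF4 and NRF2 or of the lipid sensor PPARα.

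Each deposited value is a probe set's signal on an array divided by the median signal of the 4 matching oil arrays, so an oil array sits near 1 and no absolute level, and no comparison of levels between genes, can be given. For the same reason hepatocyte markers could not be checked against the liver label. Changes below are mean differences in log2 ratio, TCE minus oil, ± SE over 4 arrays against 4, with Benjamini-Hochberg adjusted p-values from limma over every probe set of the array and a threshold of 0.05. The median SD within a group was 0.40 (log2) for the carrier probe sets in mouse and 0.46 in rat, against 0.42 and 0.46 for all probe sets. In whole liver, fewer cells of a type and less RNA per cell cannot be told apart.

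Some arrays stood apart from their groups. The log2 ratio of the Gapdh 3′ probe set minus that of the 5′ probe set, a measure of RNA integrity relative to the oil arrays, was above 1 on TCE arrays 1, 3 and 4 and on no oil array after 1 mouse dose, on TCE arrays 2, 3 and 4 and oil array 1 after 14 days in mouse, on rat TCE array 4 after 1 dose and on rat TCE arrays 3 and 4 after 14 days. Its group means after 1 mouse dose were 1.51 ± 0.95 with TCE and -0.03 ± 0.17 with oil (SD, n = 4; two-sided exact permutation p = 0.0571, where 4 against 4 allows no value under 0.0286). Exocrine pancreas markers (7 measured mouse genes of 17 listed, 12 in rat) averaged above 1 on 5 arrays, with a mean log2 ratio of 2.59 on mouse single-dose oil array 3, 2.79 and 3.56 on mouse single-dose TCE arrays 3 and 4, 1.80 on mouse 14-day TCE array 1 and 4.86 on rat single-dose oil array 3. The part of these differences in the results below was not tested, but the calls were recounted without such arrays.

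Cell type markers were counted in the same fits. Of 9 mouse hepatocyte marker probe sets 1 fell after 1 dose and 2 after 14 days, and their mean log2 ratio ran from -0.61 to -0.22 on the single-dose TCE arrays and from -0.22 to 0.12 on the oil arrays. After 14 days it ran from -0.59 to -0.15 with TCE and from -0.16 to 0.13 with oil. Of 25 rat hepatocyte marker probe sets 3 rose after 1 dose and 1 fell after 14 days. Their median change after 1 dose was -0.19, so most did not rise. Their mean log2 ratio, which large rises can carry, ran from 0.20 to 0.55 with TCE and from -0.21 to 0.21 with oil. After 14 days the median change was 0.01. Of 15 mouse macrophage marker probe sets 1 rose and 3 fell after 14 days, of 8 endothelial ones 1 fell, of 11 stellate ones 1 rose and 1 fell, and of 7 erythroid ones 1 fell. After 1 dose 1 stellate and 1 erythroid marker fell in mouse, and in rat 1 of 5 endothelial markers fell after 14 days. Mean log2 ratios of mouse stellate markers did not overlap after 1 dose (TCE -1.25 to -0.34, oil -0.27 to 0.45), nor did those of mouse endothelial markers after 1 dose (TCE -0.30 to -0.19, oil -0.16 to 0.15) or 14 days (TCE -0.71 to -0.25, oil -0.15 to 0.09). The two-sided exact permutation p was 0.0286 for each, the smallest that 4 against 4 allows, without adjustment over the lists. Mouse macrophage markers ran from -0.55 to -0.08 with TCE and from -0.18 to 0.09 with oil after 1 dose. In rat no stellate or macrophage probe set passed. Rat stellate markers ran from -1.23 to -0.33 with TCE and from -0.42 to 0.38 with oil after 1 dose. Rat macrophage markers ran from -1.46 to 0.06 with TCE and from -0.35 to 0.32 with oil after 1 dose. After 14 days they ran from -1.15 to -0.31 with TCE and from -0.34 to 0.30 with oil. Rat endothelial markers ran from -0.37 to 0.68 with TCE and from -0.26 to 0.20 with oil after 1 dose. Biliary and pancreas markers gave 0 calls by limma. The part of these shifts in the results of the carriers was not tested.

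After 1 dose in mouse, 15 of 177 carrier probe sets passed the threshold, 5 higher and 10 lower, which is 8.47% against 8.3% of all probe sets (4.16% higher and 4.14% lower). After 14 days 19 passed, 1 higher and 18 lower, which is 10.7% against 10.7% of all probe sets (2.24% higher and 8.48% lower). In rat 1 of 172 passed after 1 dose, a rise, against 1.72% of all probe sets (1.21% higher), and 5 passed after 14 days, 3 higher and 2 lower, against 2.81% (2.16% higher and 0.652% lower). At an unadjusted p under 0.05 the counts were 39 and 56 in mouse and 37 and 29 in rat. The median change of the carriers was -0.07 and -0.15 in mouse and 0.19 and 0.00 in rat, beside -0.09, -0.15, 0.14 and 0.04 for all probe sets. The carriers were thus called about as often as all probe sets in mouse and in rat after 14 days (2.91%). In rat after 1 dose the share was 0.581%, from a single call, and its difference from the share of all probe sets was not tested. The results below concern single members.

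The counts moved with the arrays used. Leaving out a single array of the single-dose comparison gave 7 calls without TCE array 1 or 4, 8 without oil array 1 and 9 without oil array 2, 3 or 4 or TCE array 3. For the 14-day comparison it gave 8 without oil array 4, 9 without TCE array 2 and 10 without oil array 2. The single rat call after 1 dose became 0 without oil array 2 or 4 or any TCE array and 4 without oil array 1, and the 5 rat calls after 14 days became 0 without oil array 4, 1 without oil array 1, 2 without TCE array 2 and 3 without oil array 3. Without the arrays whose Gapdh difference was above 1, the counts were 1 and 2 in mouse and 0 and 1 in rat. That setting leaves 1 TCE array in each mouse schedule, which is assumed to vary like the other groups, so a call lost there in mouse says little. Without the arrays whose pancreas markers were above 1, the counts were 2 and 7 in mouse and 1 and 5 in rat. That setting drops TCE arrays 3 and 4 and oil array 3 of the mouse single-dose comparison. A call lost there may be lost through fewer arrays alone, which was not tested. Centring every array on its median moved the 14-day mouse calls from 1 higher and 18 lower to 7 higher and 7 lower, and 8 of the 19 main calls were among these 14.

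Most calls were lost in at least 1 setting. Of the calls in the 4 comparisons, the single-dose rise of mouse Slc3a2 alone passed under quantile normalization, and alone among the mouse single-dose calls with the Gapdh difference as a covariate. Centring ended the 14-day mouse calls of Slc6a13, Slc7a7, Slc16a7, Slc22a23, Slc25a15, Slc29a1, Slc30a5, Slc33a1, Slc35e1, Slc39a4 and Slc39a7 (adjusted p from 0.0697 to 0.162) and the single-dose calls of Slc12a4, Slc66a2 and 1 Slc25a5 probe set (adjusted p from 0.0634 to 0.0973). With only the groups compared, the 14-day mouse calls kept were those of Slc3a1, Slc22a30 and Slc46a1, and no rat call was kept. Without the arrays high in pancreas markers, the single-dose mouse calls kept were those of Slc3a2 and Slc48a1, and the 14-day ones those of Slc3a1, Slc6a13, Slc22a30, Slc38a2, Slc39a7 and Slc46a1. With the Gapdh covariate no 14-day rat call was kept (adjusted p from 0.0906 to 0.171).

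**Figure D1:**
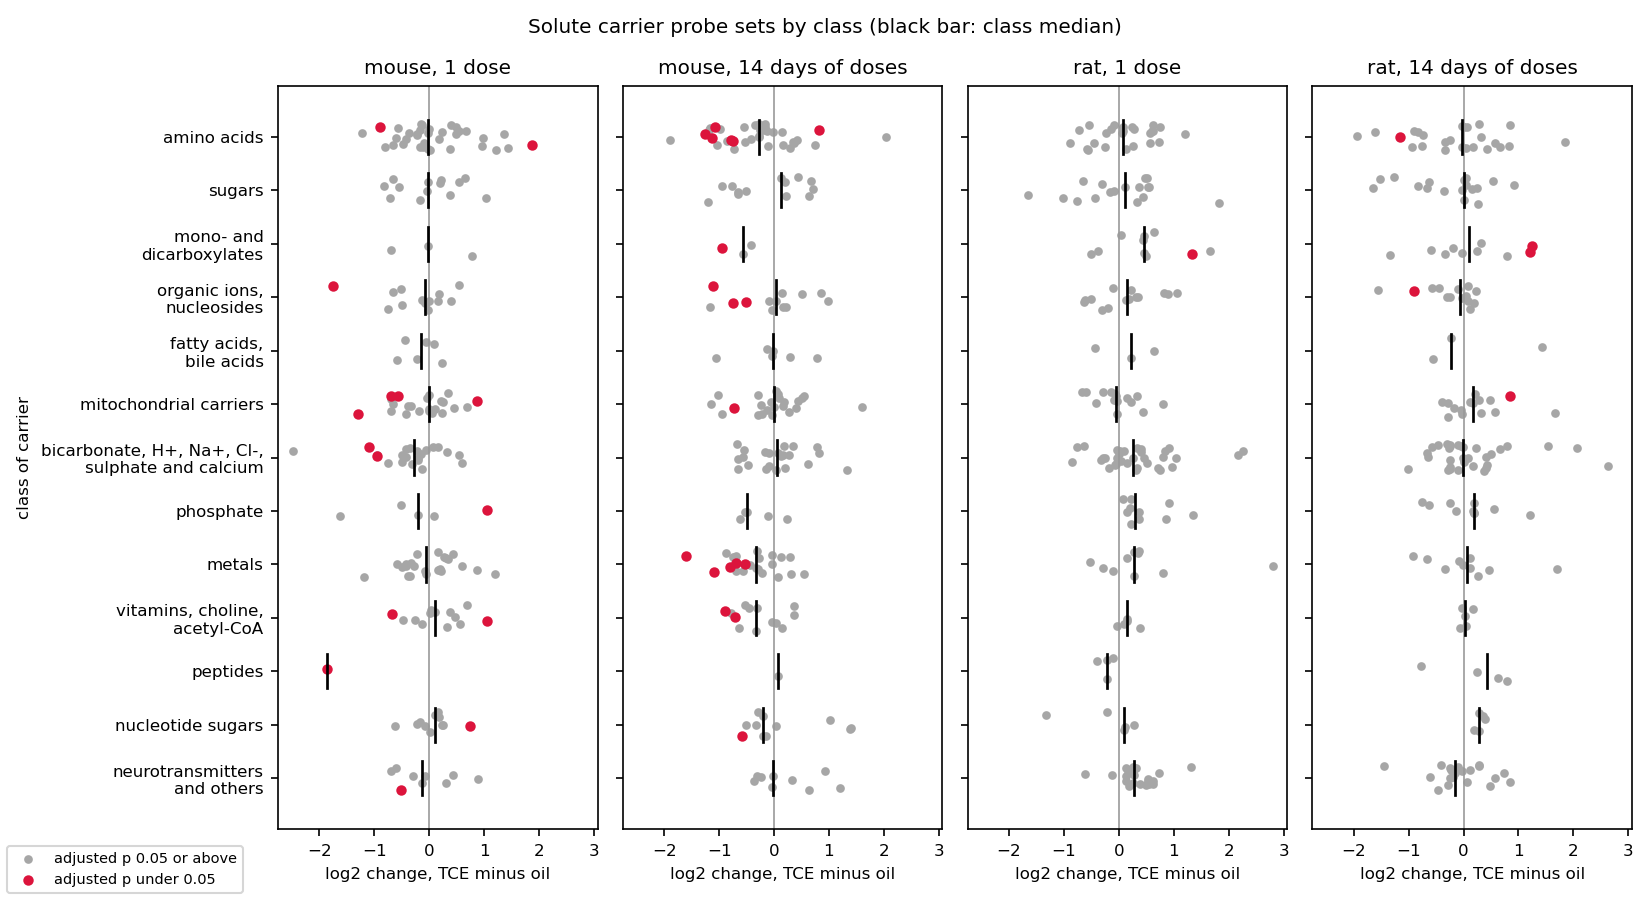
Log2 change with TCE (x axis) of each carrier probe set, grouped by class (y axis), in mouse and rat after 1 dose or 14 days of doses; red points passed adjusted p 0.05 and black bars are class medians. Called probe sets are scattered over many classes, and the 14-day mouse panel holds 18 of its 19 red points to the left of 0.

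Carriers of amino acids made up 35 mouse probe sets (27 genes) and 25 rat probe sets (16 genes). In mouse the amino acid heavy chain Slc3a2 rose after 1 dose and after 14 days, and the GABA carrier Slc6a13 fell after both. After 14 days the heavy chain Slc3a1, the light chain Slc7a7, the taurine carrier Slc6a6 and a probe set of the neutral amino acid carrier Slc38a2 also fell. In rat no amino acid carrier passed after 1 dose, and the glycine carrier Slc6a9 fell after 14 days. The class median was -0.03 and -0.27 in mouse after 1 dose and 14 days, and 0.08 and -0.03 in rat.

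Slc3a2 had ratios of 3.52, 4.50, 3.32 and 3.35 on the mouse single-dose TCE arrays and 1.08, 0.887, 0.921 and 1.10 on the oil arrays. All 4 TCE arrays lay above all 4 oil arrays. The log2 change was 1.88 ± 0.18 (adjusted p = 6.67e-05). After 14 days the TCE ratios were 2.10, 1.5, 1.34 and 2.06 and the oil ratios 0.962, 0.813, 1.04 and 1.10, again with no overlap, for a change of 0.82 ± 0.18 (adjusted p = 0.0125). The single-dose rise passed without each of the 8 arrays in turn and in all 10 alternative settings that were run, of which 1 (without the arrays high in Gapdh difference) left a single TCE array. It was at 1.64 (adjusted p = 0.00425) under quantile normalization and at 1.97 (adjusted p = 0.0148) without the arrays high in pancreas markers. The 14-day rise lost its call without the mouse arrays high in pancreas markers (adjusted p = 0.0589), under quantile normalization (adjusted p = 0.255), with only the groups compared (adjusted p = 0.0686) and without the arrays high in Gapdh difference (adjusted p = 0.127, a single TCE array left).

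None of the measured Slc7 light chains passed in mouse after 1 dose. In mouse after 1 dose Slc7a5 was at -0.02 ± 0.19 (adjusted p = 0.964), Slc7a11 at 0.17 ± 0.91 (adjusted p = 0.941) and Slc7a8 at -0.23 ± 0.38 (adjusted p = 0.768). The 10 mouse Slc7 probe sets (9 genes) had a median of -0.07. They ran from -0.57 ± 0.19 for Slc7a2 to 0.98 ± 0.63 for Slc7a6 (adjusted p = 0.0792 and 0.37). Slc7a7, a light chain for cationic and neutral amino acids, had 14-day TCE ratios of 0.393, 0.296, 1.01 and 0.415 and oil ratios of 0.734, 1.29, 1.06 and 0.935. TCE array 3 lay within the oil range, and the fall of 1.07 ± 0.32 passed narrowly (adjusted p = 0.0493). It lost its call without oil array 2, 3 or 4 or TCE array 1, 2 or 4 (adjusted p from 0.0879 to 0.141).

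Slc3a1, the heavy chain for cystine and dibasic amino acids, fell in the same mice in which Slc3a2 rose. Its 14-day TCE ratios were 0.416, 0.434, 0.507 and 0.530 and its oil ratios 0.984, 1.11, 1.01 and 0.986, without overlap, a change of -1.12 ± 0.23 (adjusted p = 0.00867). After 1 dose the TCE ratios were 0.819, 0.349, 0.667 and 0.742 and the oil ratios 1.02, 0.977, 0.791 and 1.11, where TCE array 1 overlapped oil array 3 (-0.66 ± 0.23, adjusted p = 0.0863). The 14-day fall kept its call without each array in turn and lost it under quantile normalization (adjusted p = 0.281).

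Slc38a2 was covered by 4 mouse probe sets that did not move together. The 1 that passed had 14-day TCE ratios of 0.325, 0.307, 0.714 and 0.418 and oil ratios of 1.27, 0.779, 0.939 and 1.06, with no overlap (-1.26 ± 0.25, adjusted p = 0.00747). The other 3 were at 2.03 ± 0.93, 0.75 ± 0.69 and -0.72 ± 1.03 (adjusted p = 0.172, 0.517 and 0.694), with ratios from 0.141 to 5.26, so the gene's direction is uncertain. After 1 dose the 4 probe sets were at -0.23, 1.43, 1.36 and 0.49, and none passed.

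The 250 bases before the start of Slc3a2, Slc3a1 and Slc38a2 are printed because Slc3a2 and Slc3a1 were called in opposite directions in mouse and Slc38a2 is a carrier whose probe sets disagree. They come from RefSeq promoter windows of build GRCm38.p6, in which 119 of the 145 mouse genes were found by symbol, and each is written 5′ to 3′ on the gene's own strand. Capitals mark letters that match 1 of 3 motifs searched on both strands: the direct repeat bound by PPARα with RXR, TGATGNAA (an ATF4 with C/EBP element) or TGACNNNGC (an NRF2 antioxidant response element). The Slc3a2 window lies before a start inside the gene's listed span, and the other windows lie before the outer end of theirs.
Slc3a2, chr19:8713898-8714147, minus strand: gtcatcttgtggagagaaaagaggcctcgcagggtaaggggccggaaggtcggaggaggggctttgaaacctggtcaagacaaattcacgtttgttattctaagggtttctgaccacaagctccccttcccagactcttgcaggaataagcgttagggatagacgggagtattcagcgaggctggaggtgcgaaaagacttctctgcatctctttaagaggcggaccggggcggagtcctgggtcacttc
Slc3a1, chr17:85028097-85028346, plus strand: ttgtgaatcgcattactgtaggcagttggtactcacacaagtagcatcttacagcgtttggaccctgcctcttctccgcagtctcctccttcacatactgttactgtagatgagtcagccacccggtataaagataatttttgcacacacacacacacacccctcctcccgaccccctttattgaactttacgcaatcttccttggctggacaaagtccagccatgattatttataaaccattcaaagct
Slc38a2, chr15:96699729-96699978, minus strand: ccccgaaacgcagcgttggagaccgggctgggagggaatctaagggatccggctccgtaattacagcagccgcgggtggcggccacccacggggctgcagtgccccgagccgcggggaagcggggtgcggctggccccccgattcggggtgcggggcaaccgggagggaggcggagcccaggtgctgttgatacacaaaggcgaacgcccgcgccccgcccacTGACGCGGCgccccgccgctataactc
The Slc3a2 and Slc3a1 windows hold no match to the motifs as spelled here, and the Slc38a2 window holds TGACGCGGC, starting 27 bases before the start. Over the table, the antioxidant motif was in 10.2% of 32851 promoters, 15% of 167 promoters of measured mouse carriers and 17.5% of 40 promoters of carriers that passed in mouse. The ATF4 motif was in 3.45%, 3.59% and 5% of them, and the PPARα motif in 0.338%, 0% and 0%. These shares count windows, and a gene can have several: the 40 belong to 23 genes and the 167 to 119. The 2 windows with the ATF4 motif among the 40 are of 1 gene, Slc7a7. Slc29a1 gave more than 1 of the 7 with the antioxidant motif. The shares are therefore not counts of independent genes, and their differences were not tested. A match is a run of letters, not a shown binding site. Its absence here says nothing about sites elsewhere, or about sites in these windows with other spellings, which were not searched.

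Slc6a13, a carrier of GABA and taurine, had mouse single-dose TCE ratios of 0.592, 0.598, 0.471 and 0.456 against oil ratios of 0.840, 0.969, 1.03 and 1.10 (-0.90 ± 0.20, adjusted p = 0.0157). After 14 days the TCE ratios were 0.708, 0.466, 0.527 and 0.426 and the oil ratios 0.622, 1.04, 1.01 and 0.986, where oil array 1 overlapped the TCE arrays (-0.78 ± 0.20, adjusted p = 0.0266). Oil array 1 was the oil array of this group whose Gapdh difference was above 1. The single-dose fall kept its call without each array in turn and lost it under quantile normalization (adjusted p = 0.252), with the Gapdh covariate (adjusted p = 0.22) and without the arrays high in pancreas markers (adjusted p = 0.212). The 14-day fall lost it without oil array 2, 3 or 4 or TCE array 2 or 4 (adjusted p from 0.0634 to 0.0763). Slc6a6, the taurine carrier, was at 0.552, 0.606, 0.677 and 0.596 on the 14-day TCE arrays and at 1.3, 1.05, 0.810 and 0.948 on the oil arrays, a fall of 0.74 ± 0.15 (adjusted p = 0.0095). The gene's other probe set was at -0.99 with an adjusted p of 0.21.

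In rat, Slc6a9, which takes up glycine, had 14-day TCE ratios of 0.582, 0.353, 0.343 and 0.560 and oil ratios of 0.926, 0.973, 1.08 and 1.03, with no overlap (-1.17 ± 0.26, adjusted p = 0.0286). After 1 dose TCE array 3 (1.05) lay among the oil arrays while the other TCE arrays were at 0.463, 0.679 and 0.429 (-0.73 ± 0.26, adjusted p = 0.155). The 14-day call was lost without oil array 1, 3 or 4 or TCE array 2 or 3 (adjusted p from 0.0608 to 0.0958). Neither rat probe set of Slc3a2 passed, with changes of 0.27 ± 0.29 and -0.23 ± 0.33 after 1 dose and of 0.29 ± 0.29 and 0.06 ± 0.33 after 14 days. Rat Slc3a1 was at 0.73 ± 0.28 (adjusted p = 0.182) and 0.17 ± 0.28 (adjusted p = 0.801). Rat Slc6a13, by the probe set of the species comparison, was at -0.89 and -0.91 and did not pass. The mouse changes were -0.90 and -0.78, and the species difference by limma did not pass (adjusted p = 0.993 and 0.848). Rat Slc6a6, by the probe set of that comparison, was at 0.25 after 1 dose and at -1.60 ± 0.45 after 14 days (adjusted p = 0.066). The arginine carrier Slc7a2 was at -0.57 ± 0.19 and -0.42 ± 0.19 in mouse and at 0.63 ± 0.41 and -0.34 ± 0.41 in rat, and the mouse neutral amino acid carrier Slc38a4 at -0.38 ± 0.14 and -0.28 ± 0.14, none past the threshold.

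**Figure D2:**
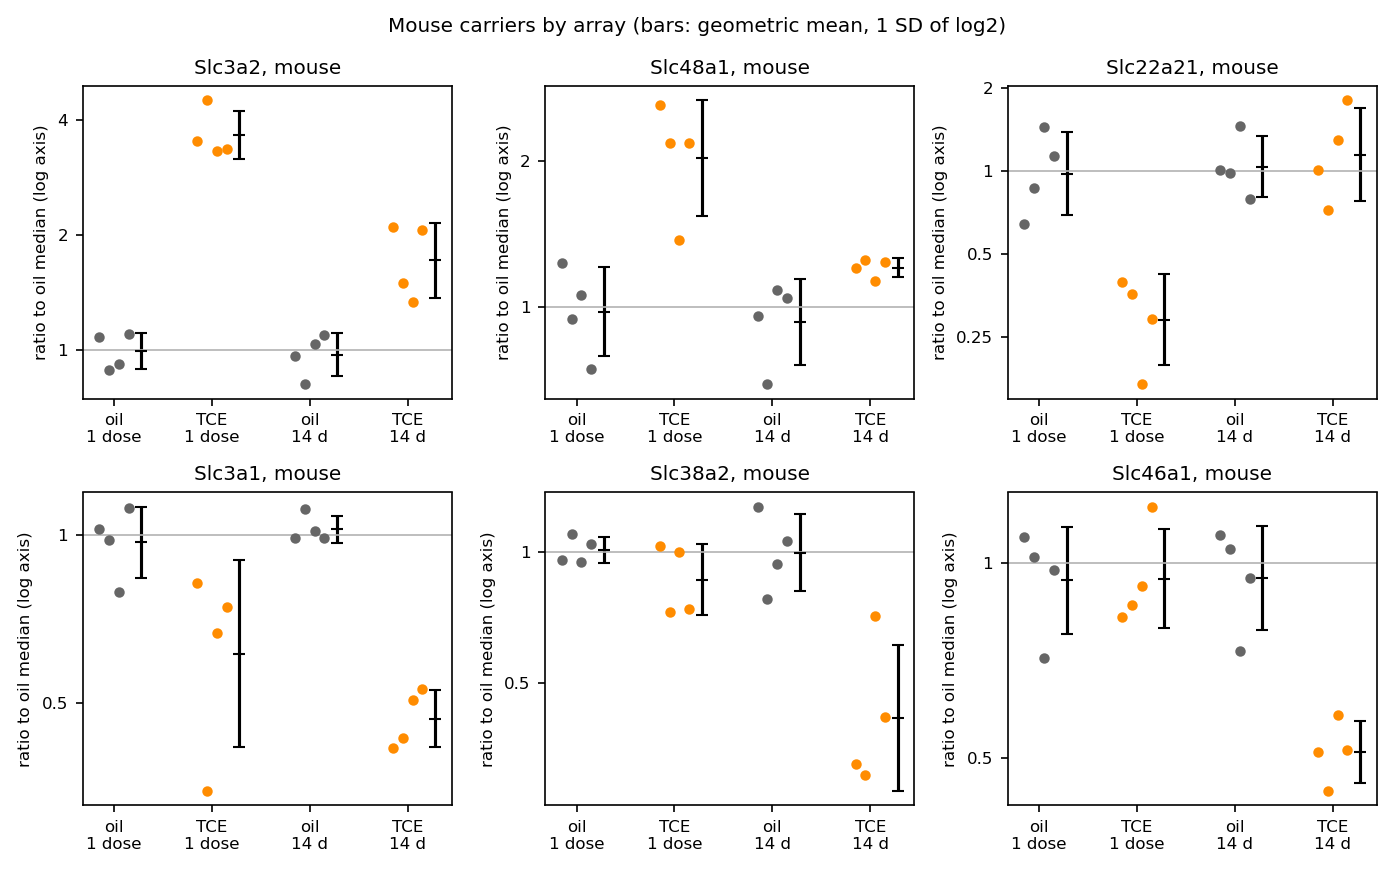
Ratio to the oil median (log axis) on every mouse array for 6 carriers, with oil in grey and TCE in orange after 1 dose or 14 days (14 d); bars are the geometric mean and 1 SD of log2. Slc3a2 lies above oil after both schedules, Slc48a1 and Slc22a21 are displaced after 1 dose, and Slc3a1, Slc38a2 and Slc46a1 lie below oil after 14 days.

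Among carriers of mono- and dicarboxylates (3 mouse probe sets of 3 genes, 10 rat probe sets of 9 genes), Slc16a7 was called in both species with opposite signs. Slc16a7 carries lactate, pyruvate and ketone bodies with high affinity. In rat its single-dose TCE ratios were 2.65, 2.67, 2.07 and 2.33 against oil ratios of 1.16, 0.607, 1.43 and 0.842 (1.33 ± 0.30, adjusted p = 0.0423). After 14 days they were 2.07, 2.94, 1.90 and 2.53 against 0.695, 1.25, 1.53 and 0.750 (1.22 ± 0.30, adjusted p = 0.0423). Every rat TCE array lay above every oil array of its schedule, and the oil arrays were spread more widely than the TCE arrays.

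Mouse Slc16a7 had single-dose TCE ratios of 0.664, 0.520, 0.731 and 0.571 and oil ratios of 0.741, 1.08, 0.924 and 1.32 (-0.69 ± 0.25, adjusted p = 0.111). The 14-day TCE ratios were 0.313, 0.763, 0.555 and 0.612 and the oil ratios 1.27, 0.968, 0.875 and 1.03 (-0.94 ± 0.25, adjusted p = 0.0314). In neither schedule did the TCE and oil arrays overlap. The rat single-dose call was lost without oil array 2 or 4 or any of the 4 TCE arrays (adjusted p from 0.0514 to 0.126). The rat 14-day call was lost without oil array 1 or 4 or TCE array 1, 2 or 4 (adjusted p from 0.0649 to 0.126), and the mouse 14-day call without oil array 1, 2 or 4 or TCE array 1 or 3 (adjusted p from 0.0531 to 0.0683). Under quantile normalization none of the 3 passed.

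Slc16a8, a lactate carrier best known from retinal epithelium, rose in rat after 14 days and was not called after 1 dose. Its 14-day TCE ratios were 2.00, 2.40, 2.64 and 2.42 and its oil ratios 1.08, 1.39, 0.920 and 0.692 (1.25 ± 0.26, adjusted p = 0.0184). After 1 dose the TCE ratios were 0.497, 0.903, 0.773 and 1.02 and the oil ratios 1.01, 0.985, 1.3 and 0.786 (-0.38 ± 0.26, adjusted p = 0.435). The 14-day call was lost without oil array 4 (adjusted p = 0.0534) or TCE array 2 (adjusted p = 0.0524). The widely expressed lactate carrier Slc16a1 was at 0.64 ± 0.19 and 0.50 ± 0.32 by its 2 rat probe sets after 1 dose (adjusted p = 0.0987 and 0.415), at 0.24 and -0.19 after 14 days, and at -0.03 and -0.42 in mouse. The rat dicarboxylate carrier Slc13a3 was at -0.51 ± 0.21 and -0.60 ± 0.21, not past the threshold.

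**Figure D3:**
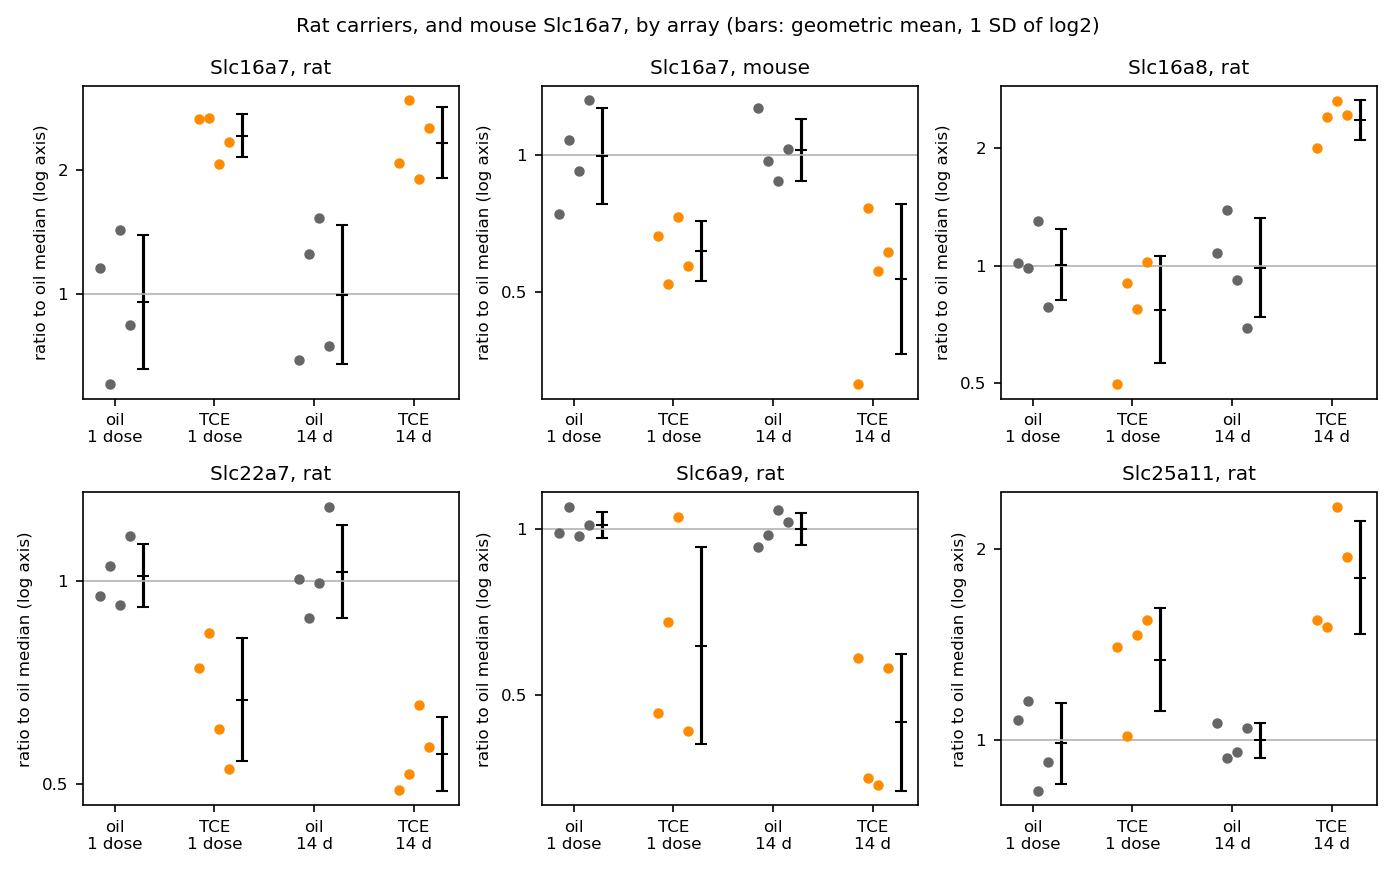
Ratio to the oil median (log axis) on every array for 5 rat carriers and mouse Slc16a7, with oil in grey and TCE in orange after 1 dose or 14 days (14 d); bars are the geometric mean and 1 SD of log2. Slc16a7 lies above oil in rat and below it in mouse, and rat Slc16a8 is displaced in the 14-day TCE group.

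Carriers of organic ions and nucleosides (13 mouse probe sets of 12 genes, 14 in rat of 12 genes) gave 1 fall in mouse after 1 dose and 3 after 14 days, and 1 fall in rat after 14 days. Mouse Slc22a21, a carnitine carrier, had single-dose TCE ratios of 0.397, 0.359, 0.168 and 0.291 and oil ratios of 0.644, 0.868, 1.44 and 1.13, with no overlap (-1.76 ± 0.34, adjusted p = 0.00768). It was at 0.14 ± 0.34 after 14 days. Its relative Slc22a5, which takes up carnitine in most tissues, was at -0.01 ± 0.36 and 0.16 ± 0.36 in mouse and at 0.18 ± 0.26 and 0.09 ± 0.26 in rat. Since these genes are close relatives, signal shared between them cannot be told apart. The Slc22a21 fall kept its call without each array in turn and lost it under quantile normalization (adjusted p = 0.15), without the arrays high in pancreas markers (-1.19, adjusted p = 0.187) and with the Gapdh difference as a covariate (-1.63, adjusted p = 0.0839).

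Rat Slc22a7, an organic anion carrier of the hepatocyte's blood-facing membrane, fell after 14 days by 1 of its 2 probe sets. The TCE ratios were 0.490, 0.517, 0.654 and 0.567 and the oil ratios 1.01, 0.881, 0.993 and 1.29, with no overlap (-0.90 ± 0.19, adjusted p = 0.0188). The other probe set was at -0.44 ± 0.29 (adjusted p = 0.443). After 1 dose the 2 were at -0.61 ± 0.19 (adjusted p = 0.101) and -0.64 ± 0.29 (adjusted p = 0.254). The call was lost without oil array 1 or 4 or TCE array 1 or 2 (adjusted p from 0.0523 to 0.0623).

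After 14 days in mouse, Slc22a30, a member of the organic anion carrier cluster, had TCE ratios of 0.309, 0.411, 0.596 and 0.539 against 0.997, 1.06, 0.819 and 1 on oil arrays (-1.10 ± 0.23, adjusted p = 0.00955). The probe set's name marks it as one that may detect related transcripts, and another probe set annotated to both Slc22a28 and Slc22a30 was left out by the rule. Slc22a23, whose substrate is not settled, fell by 0.74 ± 0.20 (adjusted p = 0.0313), a call lost without oil array 1, 2, 3 or 4 or TCE array 1, 2 or 4 (adjusted p from 0.0504 to 0.0745). The equilibrative nucleoside carrier Slc29a1 fell by 0.51 ± 0.15 by 1 probe set (adjusted p = 0.045) and was at 0.03 ± 0.23 by the other. Its call was lost without oil array 1, 2 or 4 or TCE array 2, 3 or 4 (adjusted p from 0.0758 to 0.111). Rat Slc29a1 was at -0.51 ± 0.21 and -0.30 ± 0.21 and did not pass.

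Metal carriers gave no call in mouse after 1 dose and 5 falls after 14 days among 23 probe sets (16 genes), with a class median of -0.06 and then -0.33. The 10 rat probe sets (7 genes) gave none. The magnesium exporter Slc41a1 had 14-day mouse TCE ratios of 0.232, 0.134, 0.633 and 0.655 and oil ratios of 0.982, 0.905, 1.02 and 1.22 (-1.60 ± 0.39, adjusted p = 0.0205). All TCE arrays lay below oil, and arrays 1 and 2 lay furthest. Its call was lost without oil array 4 (adjusted p = 0.0557). Slc11a2, the proton-coupled importer of ferrous iron, was at 0.591, 0.533, 0.787 and 0.571 with TCE and at 0.934, 1.01, 1.02 and 0.989 with oil (-0.69 ± 0.15, adjusted p = 0.0117), while its other mouse probe set was at -0.04 ± 0.16 (adjusted p = 0.903).

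Zinc carriers were called by single probe sets. Slc39a7, which releases zinc from the endoplasmic reticulum, fell by 1.10 ± 0.33 (adjusted p = 0.0462), with TCE ratios from 0.247 to 0.730 and an oil array 1 at 0.506 that overlapped them. That array was the oil array of its group whose Gapdh difference was above 1. Slc30a5, a zinc loader of the early secretory pathway, fell by 0.80 ± 0.23 (adjusted p = 0.0415) by a probe set that had been at 0.59 ± 0.23 after 1 dose, and its other probe set was at -0.68 ± 0.37 (adjusted p = 0.252). The name of the called Slc30a5 probe set marks a less specific design. The zinc importer Slc39a4 fell by 0.53 ± 0.16 by 1 probe set (adjusted p = 0.0455) and was at 0.55 ± 0.21 by the other, so its direction is uncertain. The calls were lost for Slc39a7 without oil array 2, 3 or 4 or TCE array 2, 3 or 4 (adjusted p from 0.0824 to 0.134). They were lost for Slc30a5 without any oil array or TCE array 1, 2 or 3 (adjusted p from 0.0547 to 0.1), and for Slc39a4 without oil array 2, 3 or 4 or TCE array 2, 3 or 4 (adjusted p from 0.0658 to 0.122).

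Other metal carriers did not pass. The zinc exporter Slc30a1 was at 0.34 ± 0.24 and -0.31 ± 0.24 in mouse. In rat its single-dose TCE ratios were 5.31, 5.13, 3.32 and 3.17 and its oil ratios 1.48, 0.523, 1.71 and 0.0911, without overlap but with a wide spread among oil arrays (2.80 ± 1.43, adjusted p = 0.3). The iron exporter Slc40a1, measured in rat by 2 probe sets, was at 0.37 ± 0.37 and 0.15 ± 0.35 after 1 dose and at -0.09 ± 0.37 and -0.34 ± 0.35 after 14 days. Rat Slc11a2 by 3 probe sets ranged from -0.52 to -0.11 after 1 dose and from -0.92 to 0.12 after 14 days.

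Carriers of vitamins, choline, heme and acetyl-CoA (13 mouse probe sets, 10 genes) gave 1 rise and 1 fall after 1 dose and 2 falls after 14 days, and none of the 5 rat probe sets passed. Slc48a1, which moves heme out of lysosomes, rose with single-dose TCE ratios of 2.60, 2.18, 1.37 and 2.18 against oil ratios of 1.23, 0.943, 1.06 and 0.745 (1.05 ± 0.21, adjusted p = 0.00938). All TCE arrays were above oil. The call held without each array in turn and without the arrays high in pancreas markers (1.32, adjusted p = 0.0484), and was lost with the Gapdh difference as a covariate (1.04, adjusted p = 0.0769) and under quantile normalization (adjusted p = 0.18). After 14 days it was at 0.37 ± 0.21 (adjusted p = 0.28).

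Slc46a1, the proton-coupled importer of folate, fell in mouse after 14 days, with TCE ratios of 0.511, 0.445, 0.582 and 0.515 and oil ratios of 1.11, 1.05, 0.731 and 0.947 (-0.89 ± 0.19, adjusted p = 0.0103). After 1 dose it was at 0.01 ± 0.19. The fall kept its call without each array in turn and lost it under quantile normalization (adjusted p = 0.539). Slc44a2, a choline transporter-like protein, fell after 1 dose by 0.68 ± 0.16 (adjusted p = 0.0223), a call lost without oil array 1 or 4 or TCE array 1 or 4 (adjusted p from 0.0587 to 0.0742). Slc33a1, which brings acetyl-CoA into the endoplasmic reticulum, fell after 14 days by 0.70 ± 0.21 (adjusted p = 0.0462), a call lost without oil array 1, 2 or 4 or any TCE array (adjusted p from 0.0585 to 0.131). Its only probe set has a name that marks a less specific design.

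Mitochondrial carriers of the SLC25 family were measured by 23 mouse probe sets (19 genes) and 15 rat probe sets (11 genes), with a class median of -0.01 and -0.00 in mouse and -0.06 and 0.17 in rat. After 1 mouse dose Slc25a28, which brings iron into mitochondria, rose: the TCE ratios were 2.01, 1.47, 2.14 and 1.86 and the oil ratios 0.993, 1.01, 0.957 and 1.08 (0.88 ± 0.19, adjusted p = 0.0133). The groups were well apart, and the call held without each array in turn but not under quantile normalization (adjusted p = 0.146), with the Gapdh covariate (0.47, adjusted p = 0.187) or without the arrays high in pancreas markers (0.74, adjusted p = 0.192). Slc25a44, a carrier of branched-chain amino acids, fell with TCE ratios of 0.368, 0.531, 0.363 and 0.333 against oil ratios of 0.682, 1.36, 0.755 and 1.25 (-1.3 ± 0.32, adjusted p = 0.0238). That call was lost without oil array 2 or 4 or TCE array 1, 3 or 4 (adjusted p from 0.0585 to 0.0711).

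Slc25a5, an ADP/ATP exchanger, fell after 1 mouse dose by 2 of its 3 probe sets, by 0.58 ± 0.13 and 0.70 ± 0.20 (adjusted p = 0.017 and 0.0409). The third was at 0.68 ± 0.53 (adjusted p = 0.468), and the 2 that fell have names that mark a shared or less specific design, so the gene's direction is uncertain. The first call was lost without TCE array 1 (adjusted p = 0.0534), and the second without any oil array or TCE array 1, 2 or 4 (adjusted p from 0.0649 to 0.119). Slc25a15, which exchanges ornithine and citrulline for the urea cycle, fell in mouse after 14 days with TCE ratios of 0.602, 0.466, 0.726 and 0.646 against 0.953, 1.04, 0.983 and 1.02 (-0.73 ± 0.18, adjusted p = 0.0241). No arrays overlapped, but the call was lost without oil array 2 or 4 or TCE array 2 (adjusted p from 0.0569 to 0.0739).

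In rat the oxoglutarate and malate exchanger Slc25a11 rose after 14 days by 1 of 2 probe sets. Its TCE ratios were 1.54, 1.51, 2.33 and 1.94 and its oil ratios 1.06, 0.936, 0.955 and 1.04 (0.85 ± 0.19, adjusted p = 0.0272), and the other probe set was at 0.21 ± 0.17 (adjusted p = 0.541). TCE arrays 3 and 4, which were the highest here, are also the 2 whose Gapdh difference was above 1. Without them the change was 0.61 (adjusted p = 0.191), and their part in the result was not tested further. The call was also lost without oil array 1, 3 or 4 or TCE array 3 or 4 taken singly (adjusted p from 0.056 to 0.0768).

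Among carriers of inorganic ions, the anion exchanger Slc4a2 and the potassium-chloride cotransporter Slc12a4 fell after 1 mouse dose. Slc4a2 had TCE ratios of 0.514, 0.649, 0.495 and 0.431 and oil ratios of 1.06, 0.896, 0.944 and 1.11 (-0.95 ± 0.22, adjusted p = 0.0164), a call lost without TCE array 4 (adjusted p = 0.0526). After 14 days it was at -0.57 and did not pass. Rat Slc4a2 was at -0.76 and -0.58 by the probe set of the species comparison and at -0.85 and -0.66 by another, none past the threshold. Slc12a4 had TCE ratios of 0.401, 0.926, 0.357 and 0.413 and oil ratios of 0.990, 1.01, 1.26 and 0.904 (-1.09 ± 0.31, adjusted p = 0.0452). TCE array 2, the TCE array of this group whose Gapdh difference was under 1, lay within the oil range. Its call was also lost without any oil array or TCE array 1, 3 or 4 (adjusted p from 0.0716 to 0.122).

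In this class of 22 mouse and 33 rat probe sets (20 genes in each) no other member passed in either schedule. The bicarbonate cotransporter Slc4a4 had the widest rat change, with 14-day TCE ratios of 5, 8.03, 1.62 and 7.59 and oil ratios of 0.624, 1.82, 1.38 and 0.219 (2.62 ± 0.72, adjusted p = 0.0621). TCE array 3 overlapped oil array 2. The sulphate carrier Slc26a1 was at -0.13 ± 0.19 and -0.55 ± 0.19 in mouse and at -0.05 ± 0.21 and 0.22 ± 0.21 in rat.

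The phosphate importer Slc20a1 rose after 1 mouse dose, with TCE ratios of 1.98, 1.65, 1.86 and 2.00 and oil ratios of 0.747, 1.36, 0.510 and 1.25 (1.06 ± 0.29, adjusted p = 0.0383). The TCE arrays were close to each other and the oil arrays spread widely, and the call was lost without oil array 1 or 3 or TCE array 1, 3 or 4 (adjusted p from 0.0769 to 0.105). After 14 days it was at -0.49 ± 0.29. Slc35d1, which brings nucleotide sugars such as UDP-glucuronate into the endoplasmic reticulum, rose with TCE ratios of 1.82, 1.27, 1.79 and 1.87 against 0.939, 1.06, 0.902 and 1.09 (0.75 ± 0.19, adjusted p = 0.0267). TCE array 2, the TCE array of this group whose Gapdh difference was under 1, was the lowest. The call was lost without oil array 1, 2 or 3 or TCE array 1, 3 or 4 (adjusted p from 0.0519 to 0.0802).

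The peptide carrier Slc15a2 fell after 1 mouse dose, with TCE ratios of 0.621, 0.231, 0.183 and 0.167 and oil ratios of 1.21, 0.850, 0.659 and 1.15 (-1.87 ± 0.51, adjusted p = 0.0389). It was at 0.07 ± 0.51 after 14 days, and the single-dose call was lost without any oil array or TCE array 2, 3 or 4 (adjusted p from 0.0585 to 0.107). Slc66a2, a member of a family of lysosomal and Golgi proteins, fell by 0.52 ± 0.15 (adjusted p = 0.04996) and lost its call without any oil array or TCE array 1, 3 or 4 (adjusted p from 0.0804 to 0.14). Slc35e1 fell after 14 days by 0.59 ± 0.16 (adjusted p = 0.0347), a call lost without oil array 1, 3 or 4 or TCE array 2 or 3 (adjusted p from 0.0671 to 0.102).

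Sugar carriers (13 mouse probe sets of 10 genes, 17 rat probe sets of 11 genes) and carriers of fatty acids and bile acids (6 mouse and 3 rat probe sets) gave no call in any of the 4 comparisons. Slc2a2, the main glucose carrier of the hepatocyte, had mouse single-dose TCE ratios of 0.624, 0.486, 0.752 and 0.599 and oil ratios of 0.808, 1.13, 0.866 and 1.24, with no overlap, and missed the threshold (-0.71 ± 0.23, adjusted p = 0.0706). After 14 days it was at -0.66 ± 0.23 (adjusted p = 0.0782), and in rat at 0.34 ± 0.28 and 0.25 ± 0.28. The largest changes among sugar carriers after 1 dose were 1.04 ± 0.50 for mouse Slc2a1 and 1.82 ± 0.55 for rat Slc5a3 (adjusted p = 0.215 and 0.0989). The fatty acid carriers Slc27a1 and Slc27a4 were at -0.59 ± 0.35 and 0.23 ± 0.19 in mouse after 1 dose and at -0.04 ± 0.35 and -0.13 ± 0.19 after 14 days. Rat Slc27a1 was at -0.43 ± 0.18 and -0.22 ± 0.18.

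Genes that work beside the carriers were listed separately and are not members. Of the 12 listed carrier partners 6 were measured in mouse by 8 probe sets: basigin fell after 1 dose (-1.88 ± 0.42, adjusted p = 0.0151) and ezrin after 14 days (-0.83 ± 0.24, adjusted p = 0.0405), and none of the 8 rat probe sets passed. The mouse partner mean was -1.09, 0.13, -1.04 and -1.04 on single-dose TCE arrays 1 to 4 and -0.10 to 0.39 on oil. After 14 days it was -1.32 to -0.54 with TCE, -0.81 on oil array 1 and 0.03 to 0.17 on the other oil arrays. Single-dose TCE array 2 had a Gapdh difference under 1, unlike the other TCE arrays, and 14-day oil array 1 had one above 1. The part of that difference in these falls was not tested. Of 8 aquaporins 5 were measured in mouse, of which Aqp1 fell after both schedules (-0.84 ± 0.20 and -0.82 ± 0.20, adjusted p = 0.0202 for each), Aqp8 after 1 dose and Aqp9 after 14 days, and none of 8 rat probe sets passed. The sodium pump list had no call in mouse (7 probe sets) and 1 in rat, a fall of Fxyd1 after 1 dose (-1.24 ± 0.27, adjusted p = 0.0409). Its mouse mean log2 ratio did not overlap after 1 dose (TCE -0.53 to -0.15, oil -0.05 to 0.10). The two-sided exact permutation p was 0.0286, without adjustment over the lists. After 14 days the ranges overlapped (TCE -0.26 to 0.09, oil -0.19 to 0.31). Of the organic anion transporters named Slco, rat Slco2a1 fell after 1 dose (-0.76 ± 0.18, adjusted p = 0.0499) and no other probe set passed.

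The effect of 14 days was compared with that of 1 dose by the difference of the 2 changes. No carrier probe set passed in mouse, against 0.877% of all probe sets (0.209% higher and 0.668% lower), and none in rat, against 0%. By limma's unadjusted p under 0.05 there were 31 in mouse and 17 in rat, and 4, 2, 11 and 2 mouse probe sets passed with log2(ratio + 1), with array weights, without the noisiest 40% of probe sets and with the Gapdh covariate. Without mouse 14-day TCE array 4 the mouse count was 1. The smallest p-values in mouse belonged to Slc30a5 (-1.40 ± 0.33, adjusted p = 0.0558) and Slc3a2 (-1.06 ± 0.25, adjusted p = 0.0589), the latter lower after 14 days than after 1 dose. In rat they belonged to Slc16a8 (1.64 ± 0.36, adjusted p = 0.321) and the sodium-calcium exchanger Slc8a2 (-1.11 ± 0.34, adjusted p = 0.413). A call in 1 schedule and not in the other is therefore no shown difference between schedules for any carrier here.

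The mouse and rat effects were compared over 69 carrier genes measured in both species, by 1 probe set per gene and species. After 1 dose the species differed for 4 (5.8%, against 4.22% of 3056 shared genes; 1 with the mouse effect higher and 3 lower, against 1.51% and 2.72%). After 14 days they differed for 7 (10.1% against 10.5%; 2 higher and 5 lower, against 2% and 8.51%). The shares again lie near the background, and the single-dose count was 2 without mouse oil array 4. After 1 dose 17 genes were higher in both, 17 lower in both, 12 higher in mouse and lower in rat and 23 the reverse, and across these genes, which are not independent replicates, Pearson's r was 0.096. After 14 days the counts were 14, 21, 13 and 21 and r was 0.17.

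Slc16a7 differed after both schedules, with a mouse effect below the rat effect by 2.02 ± 0.39 after 1 dose (adjusted p = 0.00335) and by 2.16 ± 0.39 after 14 days (adjusted p = 0.000761). Slc3a2 differed after 1 dose, where the mouse effect exceeded the rat effect by 1.60 ± 0.34 (adjusted p = 0.00548). Both held without each array in turn, and they were lost under quantile normalization (adjusted p = 0.225 and 0.176 for Slc16a7 and 0.0609 for Slc3a2). Without the arrays high in Gapdh difference, where a single mouse TCE array is left, the single-dose Slc16a7 difference was -2.28 (adjusted p = 0.0525). Slc3a1 differed after 1 dose (-1.39 ± 0.36, adjusted p = 0.0268) and after 14 days (-1.29 ± 0.36, adjusted p = 0.0204). These calls were lost without mouse oil array 4, mouse TCE array 2 or rat TCE array 4 (single dose, adjusted p from 0.0506 to 0.0589) and without rat oil array 1 (14 days, adjusted p = 0.058), under quantile normalization (adjusted p = 0.57 and 0.42) and without the arrays high in pancreas markers (adjusted p = 0.0534 and 0.0503). The 14-day one was also lost by centring and with the 16 arrays of the schedule alone (adjusted p = 0.0542 for each).

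Other differences were seen in 1 schedule. After 14 days the phosphate and urate carrier Slc17a1 was at -0.52 in mouse and 0.55 in rat (-1.08 ± 0.27, adjusted p = 0.0105), Slc6a9 at 0.14 and -1.17 (1.31 ± 0.31, adjusted p = 0.00771) and the light chain Slc7a5 at 0.34 and -0.82 (1.16 ± 0.31, adjusted p = 0.0168). These 3 held without each array in turn and were lost under quantile normalization (adjusted p = 0.512, 0.127 and 0.302). Slc17a1 was also lost by centring (adjusted p = 0.0542) and when probe sets were averaged (adjusted p = 0.217), and Slc7a5 with the 16 arrays of the schedule alone (adjusted p = 0.0545). Without the arrays high in Gapdh difference, which leaves 1 mouse TCE array, Slc6a9 and Slc7a5 had adjusted p-values of 0.0852 and 0.0859. Slc4a4 was at -0.15 in mouse and 2.62 in rat (-2.77 ± 0.78, adjusted p = 0.0204), a call lost without rat oil array 4 (adjusted p = 0.0524), under quantile normalization (adjusted p = 0.338), with the 16 arrays alone (adjusted p = 0.0552) and without the arrays high in pancreas markers (adjusted p = 0.0629). Slc11a2 differed by -0.80 ± 0.25 (adjusted p = 0.04) and lost its call when probe sets of the gene were averaged (adjusted p = 0.835). Slc25a5 differed after 1 dose by -0.73 ± 0.20 (adjusted p = 0.0303) and lost its call likewise (adjusted p = 0.429). The last 2 also depended on single arrays: Slc11a2 was lost without any of 11 of the 16 arrays (adjusted p from 0.0522 to 0.0854) and Slc25a5 without any of 7 (adjusted p from 0.0517 to 0.0613).

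**Figure D4:**
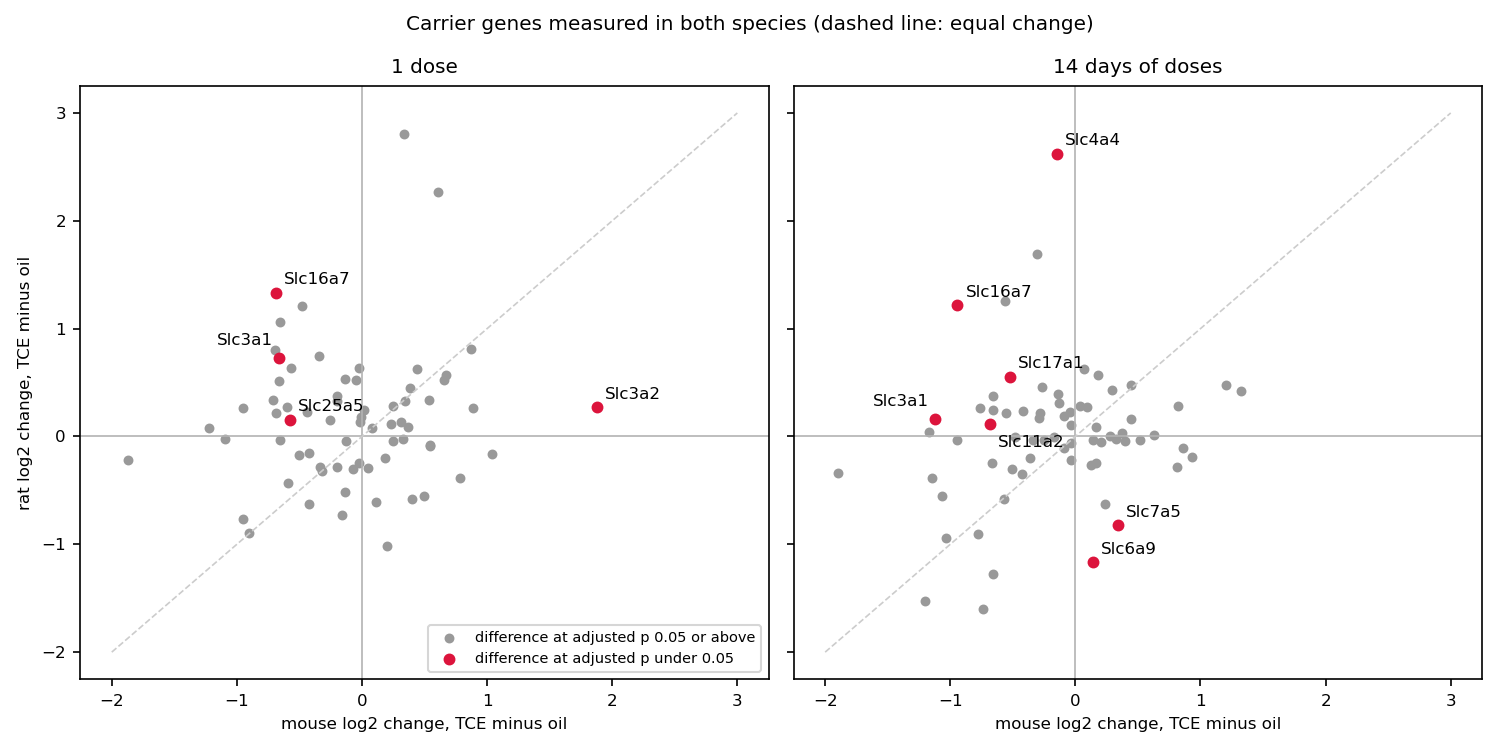
Mouse change (x axis) against rat change (y axis), both log2 TCE minus oil, for 69 carrier genes after 1 dose (left) and 14 days (right); red points are genes whose species difference passed adjusted p 0.05. Slc16a7 lies at upper left in both panels, and Slc3a2 lies to the far right after 1 dose.

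Probe sets of the same carrier often differed in sign. Of 28 mouse genes with several probe sets, 10 had 1 sign throughout after 1 dose and 17 after 14 days. Of 41 such rat genes, 32 and 18 did.

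**Figure D5:**
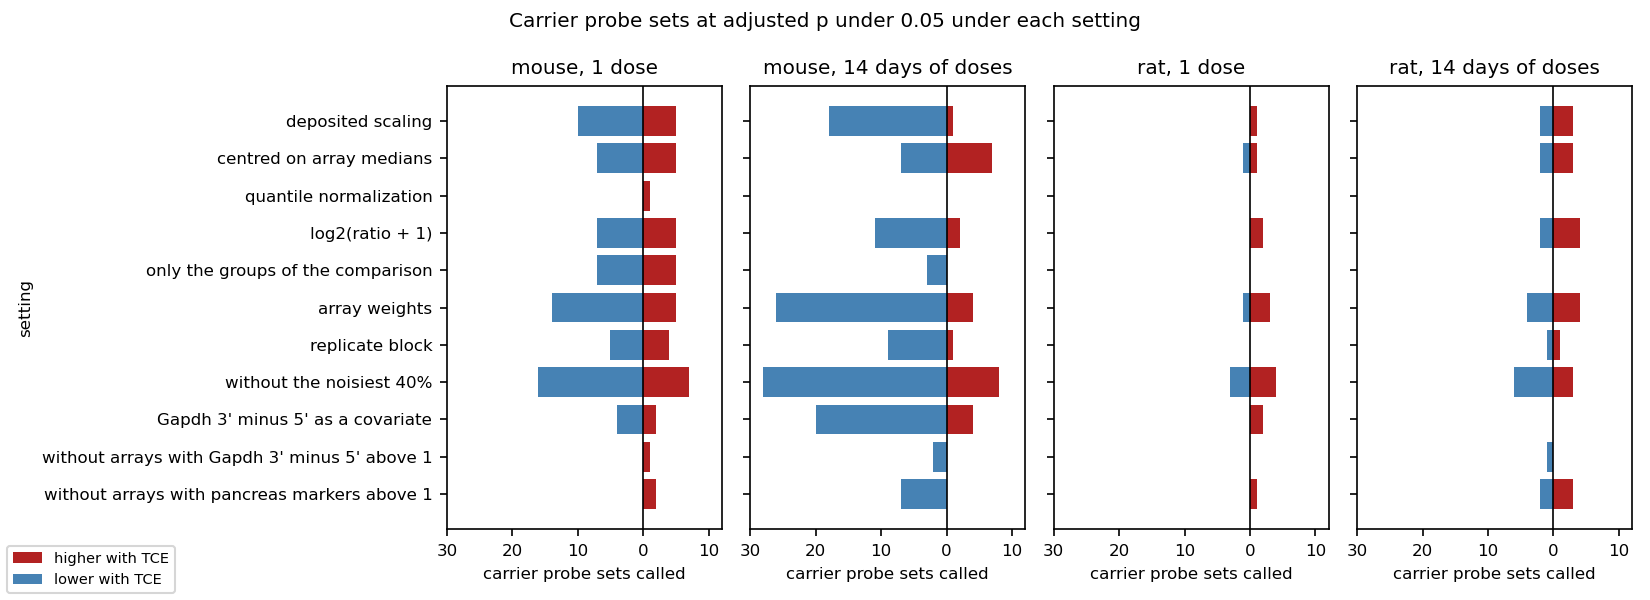
Number of carrier probe sets past adjusted p 0.05 (x axis, lower with TCE to the left of 0 in blue and higher to the right in red) under each setting (y axis), for the 4 TCE comparisons. The 14-day mouse count runs from 0 under quantile normalization to 36 without the noisiest 40% of probe sets.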

How the data were processed

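Polyadenylated liver RNA was hybridised to Affymetrix arrays, per the labels. The submitters' processing notes name MAS5 for the signals (version: not given in the sources used here). What was deposited is a ratio to control, as found from the values: within 0.002, the 4 matching oil arrays had a median of 1 for every complete probe set. Scaling before division is not described. The ratios were taken to log2 and tested with limma 3.58.1 (lmFit and eBayes, a mean per group over 16 arrays a species, 32 for the species comparison), with Benjamini-Hochberg adjustment over all non-control probe sets or shared genes; 66 mouse and 59 rat control probe sets were left out. For the species comparison the probe set with the smallest pooled SD within groups stood for a gene. No pair of arrays in a group was a duplicate. The fit was tested on simulated data. Genes are named from the platform annotation.

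The members and lists were chosen with earlier results of these data known. Named genes are members past the threshold (up to 15 rises and 15 falls by size), up to 8 each way for differences or the 2 smallest p-values where none passed, the largest change in a class without calls, and a list of liver carriers given whatever their values; Slc35e1 and Slc39a4 lie outside the 15 falls and, like the Slc7 light chains, were added after their values were seen. Array number limits the precision. Alternatives were other scalings, log2(ratio + 1), only the groups compared, array weights, the replicate number as a block, a filter on noisy probe sets, the Gapdh difference as a covariate or a filter, and leaving out each array. Leaving out arrays with pancreas markers above 1 was added after seeing the data.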

Additional observations from a re-analysis of the deposited data

Results flagged for a closer look

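Among 224 groups of 4 arrays examined for the named carriers, 11 held an array that lay apart from the other 3 by Dixon's 95% criterion, which chance meets in about 1 group in 20. In the mouse single-dose TCE group these were Slc25a5 on array 2 (0.764, first called probe set), Slc35d1 on array 2 (1.27), Slc12a4 on array 2 (0.926), Slc27a4 on array 1 (0.857) and an uncalled Slc38a2 probe set on array 3 (1.05). In mouse oil groups they were the second called Slc25a5 probe set on single-dose array 3 (1.25), and Slc39a7 (0.506) and Slc6a13 (0.622) on 14-day array 1. In rat TCE groups they were Slc16a1 on single-dose array 4 (1.01), Slc26a1 on 14-day array 3 (1.47) and Slc2a2 on 14-day array 2 (1.64). Some of these arrays also stood alone in their group by Gapdh difference. Mouse single-dose TCE array 2 was at 0.09 (other TCE arrays 1.84 to 2.13) and mouse 14-day oil array 1 at 1.46 (other oil arrays -0.24 to -0.05). Rat single-dose TCE array 4 was at 1.90 (other TCE arrays -0.66 to 0.10). The other flagged arrays did not stand alone in it. Flags that share an array are not independent, and the part of the Gapdh difference was not tested.

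The mouse and rat effects differed by limma's test of the difference for 4 carriers after 1 dose, with a mouse minus rat log2 change of -2.02 for Slc16a7, -1.39 for Slc3a1, -0.73 for Slc25a5 and 1.60 for Slc3a2. After 14 days they differed for 7, by -2.77 for Slc4a4, -2.16 for Slc16a7, -1.29 for Slc3a1, -1.08 for Slc17a1, -0.80 for Slc11a2, 1.31 for Slc6a9 and 1.16 for Slc7a5.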

How the results depend on the processing

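Counts of carrier calls are given in the order mouse 1 dose (15), mouse 14 days (19), rat 1 dose (1) and rat 14 days (5). They were 1, 0, 0 and 0 under quantile normalization, which gives oil and TCE arrays one common width, and 12, 14, 2 and 5 with arrays centred on their medians, of which 12, 8, 1 and 5 were among the main calls. They were 12, 13, 2 and 6 with log2(ratio + 1), 12, 3, 0 and 0 with only the groups compared, 19, 30, 4 and 8 with array weights and 23, 36, 7 and 9 without the noisiest 40% of probe sets. They were 6, 24, 2 and 0 with the Gapdh difference as a covariate, of which 1, 15, 1 and 0 were among the main calls. They were 1, 2, 0 and 1 without arrays where it was above 1, which leaves 1 TCE array in each mouse schedule, and 2, 7, 1 and 5 without arrays with pancreas markers above 1, a choice made after seeing the data. Leaving out 1 array gave 7 to 14, 8 to 21, 0 to 4 and 0 to 7.

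The schedule difference (0 calls) gave 4 in mouse with log2(ratio + 1), 2 with array weights, 11 without the noisiest 40%, 2 with the Gapdh covariate and 0 to 1 with 1 array left out, and 0 in rat in every setting run. The single-dose species difference (4) gave 0 under quantile normalization, 7 without the noisiest 40%, 2 without the arrays high in Gapdh difference or in pancreas markers, and 2 to 5 with 1 array left out. The 14-day species difference (7) gave 4 centred, 0 under quantile normalization, 3 with the 16 arrays of the schedule alone and 5 to 9 with 1 array left out. Centring removed a median of -0.09 and -0.15 in mouse and 0.14 and 0.04 in rat. No called value changed sign in a setting run.

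Samples with the same replicate number showed little shared deviation over all probe sets (correlations from -0.174 to 0.079). Such correlations can miss a weak shared effect, so whether the numbers pair samples is not settled by them. With the replicate block the counts were 9, 10, 0 and 2, with 0 for both schedule differences and 3 and 8 for the species differences. Signal over background is unknown, since ratios carry no level.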
